A study of Homo sapiens with 11 samples.

Results

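THP-1 macrophages were compared with THP-1 monocytes after vehicle alone, without dexamethasone. THP-1 is a human cell line grown from a monocytic leukaemia, and phorbol 12-myristate 13-acetate (PMA) is a compound used to turn it into macrophage-like cells. The samples were chosen by their labels, and 6 of the 11 samples of the series entered the comparison. The 3 macrophage samples (replicates 1, 3 and 5) came from cells given PMA for 3 h and left to recover for 24 h. The 3 monocyte samples (replicates 1, 3 and 6) came from undifferentiated cells. Cells of either state were kept in charcoal-stripped, hormone-poor medium for 24 h, took vehicle for 6 h and gave 50 ng of total RNA per measurement. The other 5 samples had received 100 nM dexamethasone (Dex) for 6 h, 2 as macrophages and 3 as monocytes, and were used to see whether a state difference was also present with Dex. They also entered the same fit, so the spread behind each p-value and SE is pooled over all 11 samples. The labels do not say what the monocytes went through during the PMA and recovery times, nor whether replicates came from cultures grown apart. The spread behind each p-value may therefore be technical. All samples come from 1 leukaemia line.

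PMA activates protein kinase C, and THP-1 cells given it stop dividing, attach to plastic and gain phagocytic and inflammatory functions. Macrophages in tissue take up particles and modified lipoproteins through scavenger receptors, bind matrix through integrins and release cytokines and chemokines. Circulating monocytes carry granule proteases and the receptors that let them leave bone marrow and enter tissue.

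RNA was measured with NanoString nCounter, in which colour-coded probes are counted without amplification. The deposited signal is a normalized linear value per gene, called units here. Of 608 probes, 594 were for genes, and 363 of these averaged 20 units or more in macrophages or in monocytes and were tested. Above 20 units were 306 genes in both states, 45 in macrophages alone and 12 in monocytes alone, and 231 genes were under 20 units in both. The highest negative control probe of each sample lay at 12.6 to 15.6 units in macrophages and at 8.97 to 12.4 units in monocytes. Pairs of samples of the same state correlated at 0.993 to 0.997 across genes, a description over genes and not a test.

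The states differed in the total signal on the panel as well as in single genes. Total signal was 742895 to 819439 units in macrophages, against 372345 to 393214 units in monocytes, a ratio of means of 2.06. Without SPP1, which alone made up 9.50% to 9.80% of the macrophage total and 0.0325% to 0.0423% of the monocyte total, the ratio was 1.86. The factor by which the deposited values had been multiplied, read from the spacing of low values, was 1.21 to 1.42 in macrophages and 0.659 to 0.953 in monocytes. Divided by that factor, the totals were 552015 to 675269 net counts in macrophages and 412607 to 565445 net counts in monocytes. At the level of 20 units a macrophage value thus rested on 14.1 to 16.5 net counts and a monocyte value on 21.0 to 30.4. Net counts leave out any background taken off before deposit, so the counts first read are not known. Intervals from such counts would cover counting error only. In bulk RNA, fewer cells expressing a gene and less RNA per cell cannot be told apart.

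Of the 363 tested genes, 316 (87.1%) differed between the states by the limma test at an adjusted p under 0.05. As deposited, 244 genes (67.2%) were higher in macrophages and 72 (19.8%) were lower. The 3 macrophage values did not overlap the 3 monocyte values for 319 genes (87.9%). The median log2 difference over all tested genes was 0.77, so a typical gene on the panel was itself higher in macrophages.

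Centring each sample on its median took away 0.87 on the log2 scale, a factor of 1.82, and left a median of -0.09. After centring, 156 genes (43.0%) were higher in macrophages and 170 (46.8%) were lower. All 72 falls kept their direction and stayed called. Centring lowers macrophage values against monocyte values, so a fall could only grow. Only the rises were thus put to a test by it. Of the 244 rises, 156 stayed called as rises, 31 were no longer called and 57 were called as falls, and the sign turned for 66 in all. Dividing instead by the geometric mean of 15 housekeeping genes took away 0.25 and kept 214 rises, while quantile normalization kept 141. A set of 140 rises and all 72 falls was called in the same direction as deposited and under all 3 scalings. The housekeeping division and quantile normalization also lowered the median difference, by 0.25 and 1.02, so neither was a strict test of the falls. Rises smaller than the 1.82-fold shift thus turn round on the centred scale, and for rises named below the centred log2 difference is given where its sign turned or its call was lost.

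**Figure D1:**
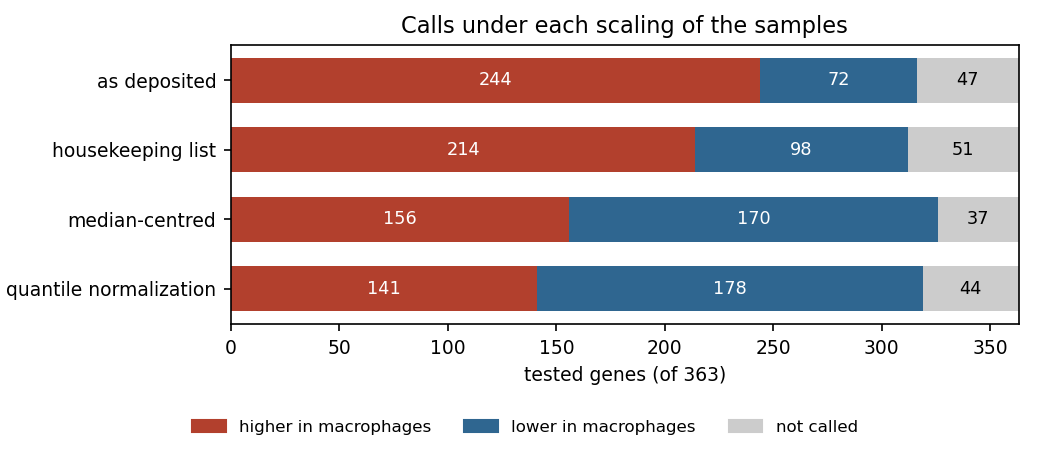
Number of the 363 tested genes called higher in macrophages, lower in macrophages or not called (limma, adjusted p under 0.05) with the deposited values and after each of 3 scalings. Rises number 244 as deposited and 156 after median-centring, and falls number 72 as deposited and 170 after median-centring.

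As deposited, large differences were more often rises. Among the 244 rises, 152 were at least 2-fold, 69 at least 4-fold, 30 at least 10-fold and 5 at least 50-fold. Among the 72 falls, 31 were at least 2-fold, 7 at least 4-fold, 3 at least 10-fold and 0 at least 50-fold. A group mean under 20 units was set to 20 for these ratios, which are then lower bounds. By the fitted difference, 166 genes called higher and 38 called lower differed by at least 1 on the log2 scale as deposited, and 90 and 78 after median-centring, so the surplus of rises was much smaller on the centred scale. The order of the genes below follows the ratios, and a gene with a bound may stand lower in it than its true ratio would put it.

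**Figure D2:**
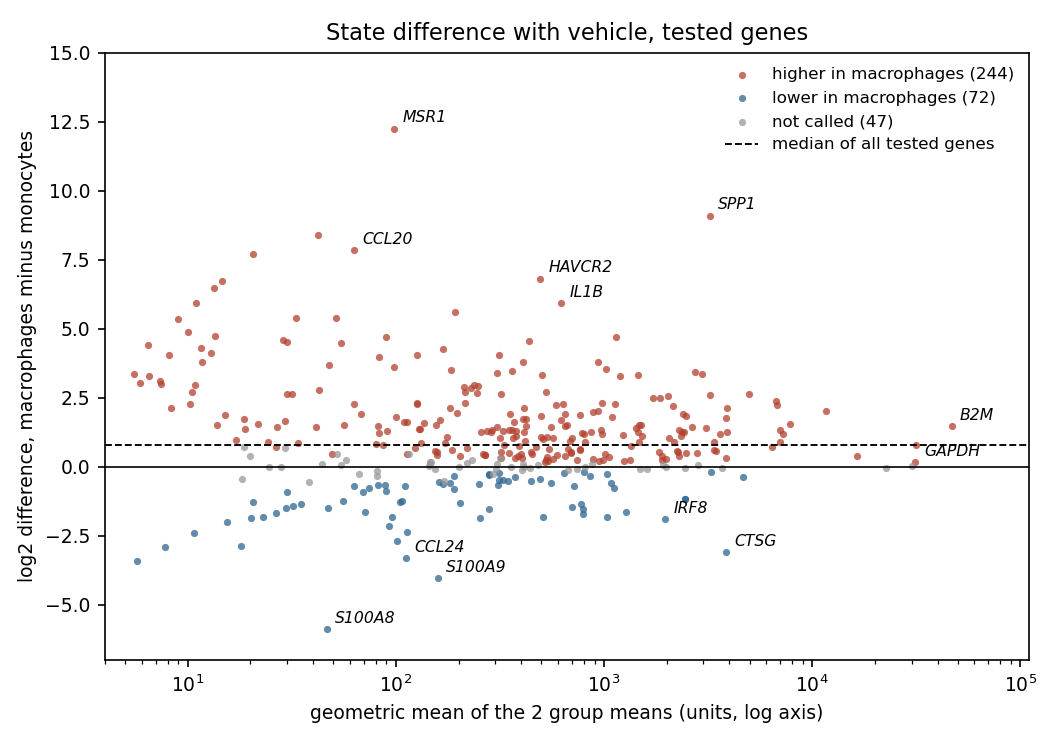
Log2 difference of macrophages minus monocytes (fitted on log2 of the value plus 1, y axis) against the geometric mean of the group means in units (x axis, log scale) for each of the 363 tested genes. The dashed line is the median of all tested genes, 0.77, and SPP1 and MSR1 lie farthest above it while S100A8 lies farthest below.

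SPP1, which encodes osteopontin, a secreted matrix protein and integrin ligand, had the largest ratio among genes above 20 units in both states. It measured 79234, 74477 and 72802 units in macrophages, against 133, 122 and 157 units in monocytes. This was a 549-fold difference (log2 difference 9.10, SE 0.07, adjusted p = 4.78e-19), and in macrophages only the B2M probe gave a higher mean signal. MSR1, the class A scavenger receptor that takes up modified lipoprotein, measured 10184, 9555 and 9292 units in macrophages and 1.00 in each sample in monocytes, the lowest value in the table. The monocyte level of MSR1 is thus not measured, and the rise was at least 484-fold (log2 difference 12.24, SE 0.24, adjusted p = 5.16e-15). HAVCR2, which encodes the inhibitory receptor TIM-3, measured 5447, 5306 and 4994 units in macrophages and 47.1, 43.8 and 46.7 units in monocytes (114-fold, log2 difference 6.81, SE 0.11, adjusted p = 1.01e-15).

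The inflammatory cytokine gene IL1B also rose, with 5066, 5023 and 4479 units in macrophages and 68.1, 78.9 and 92.8 units in monocytes (60.8-fold, log2 difference 5.92, SE 0.17, adjusted p = 2.88e-13). ICAM1, the adhesion molecule bound by leukocyte integrins, measured 1478, 1331 and 1264 units in macrophages and 30.9, 22.1 and 28.3 units in monocytes (50.1-fold, log2 difference 5.61, SE 0.22, adjusted p = 1.15e-11). In both genes the lowest macrophage sample was far above the highest monocyte sample. CCL20, a chemokine that attracts CCR6-bearing cells, measured 975, 866 and 811 units in macrophages and stayed under the 20-unit limit in monocytes, at 1.33, 1.00 and 11.2 units (at least 44.2-fold, log2 difference 7.84, SE 0.49, adjusted p = 2.00e-09). CD22, a sialic acid-binding receptor best known from B cells, measured 998, 846 and 874 units in macrophages and 1.00, 1.00 and 3.93 units in monocytes (at least 45.3-fold, log2 difference 8.39, SE 0.35, adjusted p = 1.93e-11). 

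CDKN1A, which encodes the cell-cycle inhibitor p21, measured 6167, 5749 and 5429 units in macrophages and 226, 216 and 228 units in monocytes (25.9-fold, log2 difference 4.69, SE 0.07, adjusted p = 4.44e-16). CD9, a tetraspanin of the cell surface, averaged 2112 ± 168 units in macrophages and 89.4 ± 7.27 units in monocytes (SD, n = 3 each, 23.6-fold). The remaining members of the 12 largest rises were EGR2, a zinc-finger factor of the myeloid lineage (459 ± 52.1 against 17.4 ± 5.65 units, at least 22.9-fold), LY96, the MD-2 co-receptor of TLR4 (419 ± 25.5 against 1.00 ± 0 units, at least 20.9-fold), and BCL6, a transcriptional repressor (747 ± 97.6 against 37.7 ± 4.70 units, 19.8-fold). The 12 were chosen among called genes that did not overlap between states and kept their sign after median-centring, so these properties follow from the choice. All 12 were also called as rises with the housekeeping list and after quantile normalization.

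**Figure D3:**
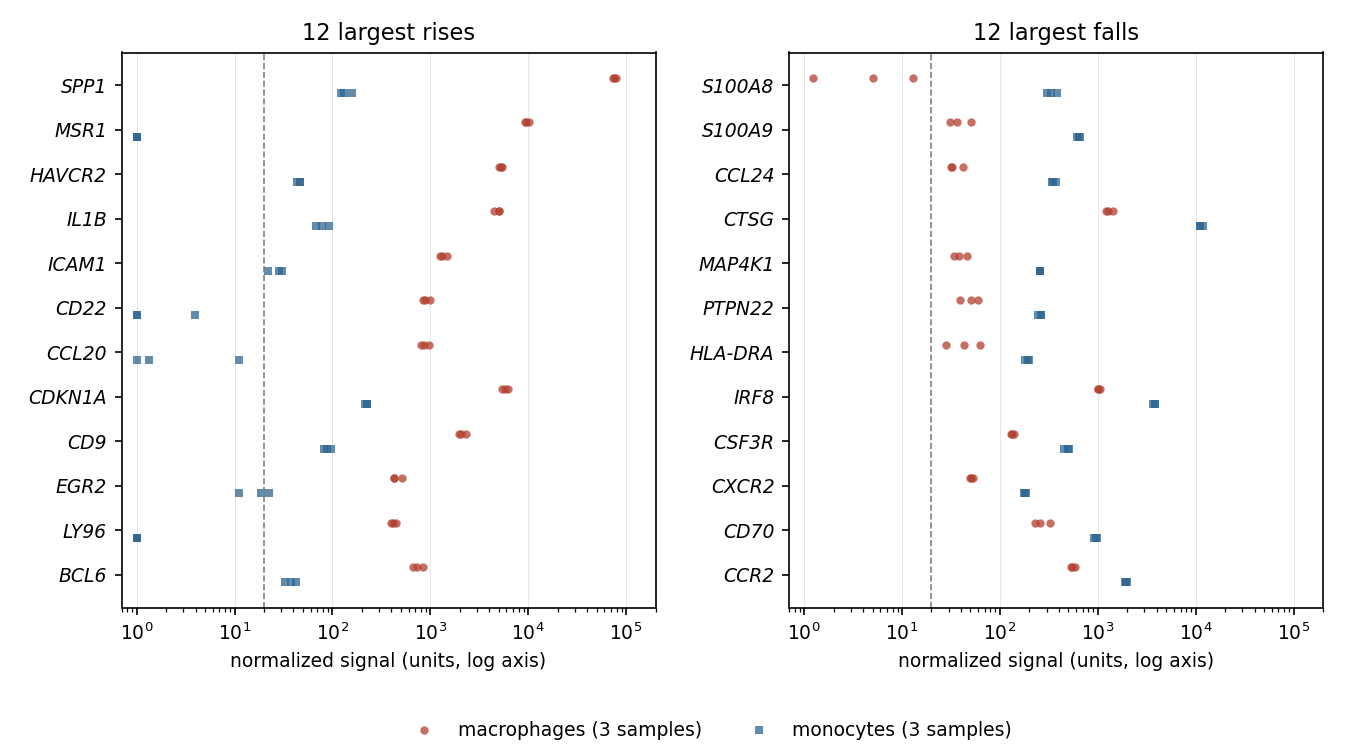
Normalized signal in units (log axis) of the 12 genes with the largest rise and the 12 with the largest fall, with 1 point for each of 3 macrophage samples and 3 monocyte samples. The dashed line marks 20 units, and genes whose states overlap were left out when the 24 were chosen.

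The largest falls were in calprotectin, the calcium-binding heterodimer that is abundant in the cytoplasm of monocytes and neutrophils. S100A8 measured 12.9, 5.08 and 1.22 units in macrophages, all under the 20-unit limit, against 386, 329.6 and 304 units in monocytes (at least 16.99-fold, log2 difference -5.89, SE 0.46, adjusted p = 2.20e-08). Its partner S100A9 measured 50.5, 30.6 and 36.7 units in macrophages and 661, 649 and 616 units in monocytes (16.3-fold, log2 difference -4.03, SE 0.17, adjusted p = 2.34e-11). Both subunits of the dimer fell, and the S100A8 ratio is a lower bound. CCL24, an eosinophil-attracting chemokine, measured 41.99, 32.1 and 31.8 units in macrophages and 346, 339.7 and 374 units in monocytes (10.01-fold, log2 difference -3.30, SE 0.20, adjusted p = 1.33e-09). CTSG, the granule protease cathepsin G, measured 1435, 1278 and 1225 units in macrophages and 11904, 10950.3 and 10988 units in monocytes (8.59-fold, log2 difference -3.10, SE 0.06, adjusted p = 2.67e-15). In monocytes CTSG gave the seventh highest probe signal of the panel.

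Further falls were in signalling and receptor genes. MAP4K1, a kinase of haematopoietic cells, averaged 39.6 ± 6.10 units in macrophages and 258 ± 0.68 units in monocytes (SD, n = 3 each, 6.52-fold). PTPN22, a phosphatase of immune receptor signalling, averaged 49.97 ± 10.5 units in macrophages and 256 ± 11.2 units in monocytes (5.13-fold). HLA-DRA, IRF8, CSF3R, CXCR2, CD70 and CCR2 completed the 12 largest falls, with ratios between 3.51-fold and 4.24-fold, and are described with their families.

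The state labels were checked against marker genes. Of 24 macrophage markers, 22 were on the panel and 17 were tested, of which 14 were higher in macrophages, 2 were lower and 1 was not called. The share of rises was 82.4%, against 67.2% of all tested genes, and 76.5% against 43.0% after centring. FCGR1A/B and CCL22 were the markers that fell, and CCL2 was not called. The summed signal of the 22 was 104507 to 114421 units in macrophages and 4272 to 4308 units in monocytes, and SPP1 made up most of it in macrophages. Of the 5 tested monocyte and progenitor markers, 4 were lower in macrophages (80%, against 19.8% of all tested genes), namely KIT, CTSG, CCR2 and IRF8. CX3CR1, the fractalkine receptor, did not pass the test (356 against 359 units). Other markers stayed under 20 units in both states, namely the mannose receptor gene MRC1, the costimulatory genes CD80 and CD86, the complement genes C1QA and C1QB, and the progenitor marker CD34.

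As deposited, scavenger receptors and the matrix and urokinase genes had the highest list medians. Of 7 tested scavenger and lectin receptors, 6 (85.7%, against 67.2% of all tested genes) were higher in macrophages and CLEC5A was not called. Their median log2 difference was 3.36, against 0.77 over all tested genes. CD36, a receptor for oxidized lipoprotein and fatty acids, measured 9671, 9842 and 8977 units in macrophages and 924, 947 and 904 units in monocytes (10.3-fold, log2 difference 3.36, SE 0.05, adjusted p = 3.68e-16). CD163, the haemoglobin-haptoglobin receptor, measured 165, 204 and 162 units in macrophages and 1.00 in each sample in monocytes (at least 8.85-fold, log2 difference 6.47, SE 0.19, adjusted p = 4.10e-13). CD209, which encodes the lectin DC-SIGN, measured 592, 489.5 and 469.5 units in macrophages and 29.9, 24.6 and 38.8 units in monocytes (16.6-fold, log2 difference 4.03, SE 0.32, adjusted p = 3.05e-08). The galectin gene LGALS3 and the scavenger receptor gene MARCO also rose (4.58-fold and at least 2.59-fold). After median-centring the 6 rises held and CLEC5A was called lower (-0.70); under quantile normalization 5 of the 6 rises held. 

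Receptors for haematopoietic growth factors moved apart. CSF1R, the receptor for macrophage colony-stimulating factor, measured 703, 626 and 527 units in macrophages and 88.1, 88.1 and 79.01 units in monocytes (7.27-fold, log2 difference 2.84, SE 0.12, adjusted p = 3.27e-11). CSF3R, the receptor for granulocyte colony-stimulating factor, measured 129, 132 and 138 units in macrophages and 502, 447 and 506 units in monocytes (3.65-fold, log2 difference -1.86, SE 0.09, adjusted p = 8.78e-11). KIT, the stem cell factor receptor, measured 67.5, 59.1 and 69.6 units in macrophages and 135, 113 and 117 units in monocytes (1.86-fold lower, log2 difference -0.89, SE 0.17, adjusted p = 2.34e-04). GFI1, a transcriptional repressor needed to form granulocytes (1644 against 3673 units), and CTSG also fell. In all, 4 of the 6 tested members of this list fell (66.7%, against 19.8% of all tested genes) and 2 rose. The median log2 difference was -1.02. After centring 5 were lower (83.3%, against 46.8% of all tested genes) and 1 was higher. The second rise, CSF2RB, the common beta chain of the IL-3, IL-5 and GM-CSF receptors, was small and depended on scaling (183 against 137 units, log2 difference 0.42, adjusted p = 0.026), since it was called lower after median-centring (-0.45) and lost its call as deposited without macrophage replicate 1 (adjusted p = 0.0756), monocyte replicate 1 (0.0755) or monocyte replicate 6 (0.0822).

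All 9 tested integrin chains were higher in macrophages as deposited, against 67.2% of all tested genes, with a median log2 difference of 2.58. ITGA6, the laminin-binding alpha 6 chain, measured 1235, 1359 and 1251 units in macrophages and 83.3, 62.2 and 84.3 units in monocytes (16.7-fold, log2 difference 4.06, SE 0.12, adjusted p = 3.08e-13). ITGAM, which encodes CD11b of the complement receptor Mac-1, measured 1256, 1176 and 1183 units in macrophages and 110, 103 and 111 units in monocytes (11.2-fold, log2 difference 3.47, SE 0.07, adjusted p = 1.23e-14). ITGAX, which encodes CD11c, measured 4003, 3699 and 3425 units in macrophages and 364, 343 and 441 units in monocytes (9.69-fold, log2 difference 3.28, SE 0.09, adjusted p = 2.54e-13). Their shared beta chain ITGB2 averaged 12396 units in macrophages and 2008 units in monocytes (6.17-fold), and the fibronectin receptor chains ITGA5 and ITGB1 rose 5.99-fold and 3.41-fold. The list did not move as a whole after centring, when 7 chains (77.8%, against 43.0% of all tested genes) stayed higher, ITGAE was not called (-0.10) and ITGA4 was called lower (-0.47).

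Among 9 tested adhesion molecules, 8 (88.9%, against 67.2% of all tested genes) were higher in macrophages and CD97 was not called. Their median log2 difference was 1.19. Beside ICAM1 and CD9, the hyaluronan receptor CD44 averaged 1770.1 units in macrophages and 446 units in monocytes (3.97-fold). Median-centring left 5 rises and called 3 members lower. All 5 tested genes of the matrix and urokinase system rose and stayed called under the 3 scalings, with a median log2 difference of 3.31. Over all tested genes 67.2% were higher as deposited and 43.0% after centring. PLAUR, the urokinase receptor, measured 1765, 1535 and 1486 units in macrophages and 170.1, 164 and 144 units in monocytes (10.01-fold, log2 difference 3.31, SE 0.12, adjusted p = 2.91e-12). FN1, which encodes fibronectin, measured 60.2, 51.96 and 52.6 units in macrophages and 1.00, 1.00 and 7.22 units in monocytes (at least 2.75-fold, log2 difference 4.12, SE 0.55, adjusted p = 8.26e-06).

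**Figure D4:**
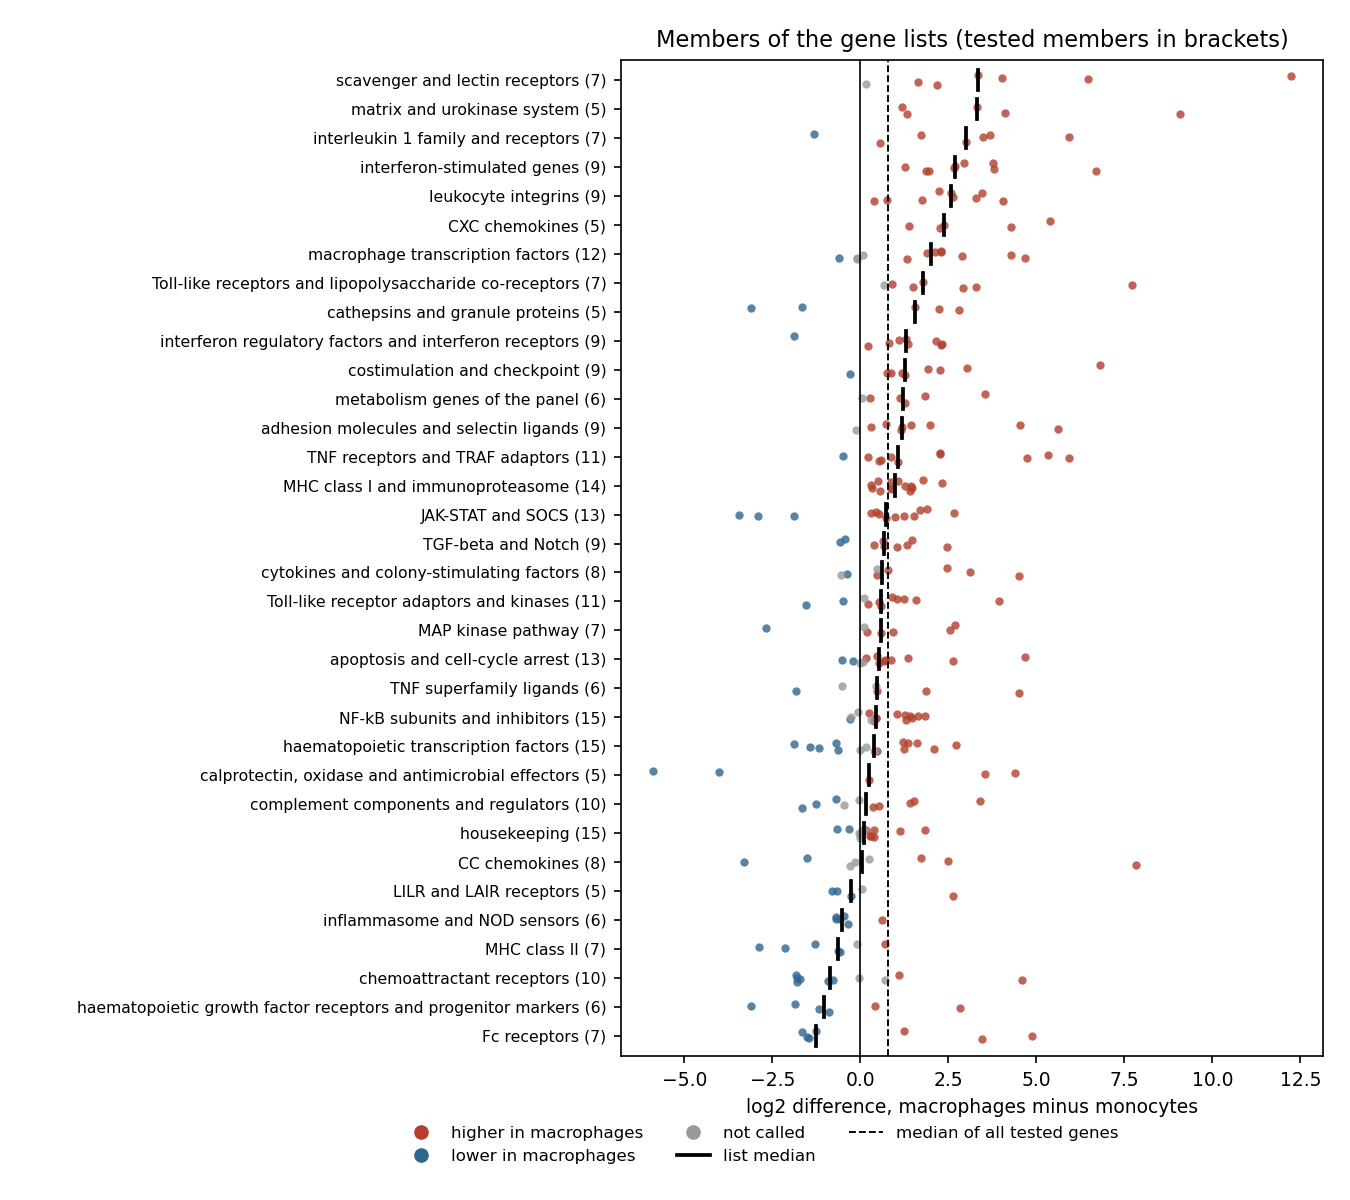
Log2 difference of macrophages minus monocytes for the tested members of 34 gene lists, 1 point a gene, ordered by list median, with the number of tested members in brackets. Thick bars are list medians and the dashed line is the median of all tested genes, 0.77. Scavenger receptors, matrix genes and interleukin 1 family genes lie at the top, and Fc receptors, growth factor receptors and chemoattractant receptors at the bottom.

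The interleukin 1 family includes the inflammatory ligands IL-1α, IL-1β and IL-18, the IL-1 receptor antagonist, and receptors for these ligands. Of 7 tested members, 6 (85.7%, against 67.2% of all tested genes) were higher in macrophages and 1 was lower. The median log2 difference was 3.01. IL1RN, the receptor antagonist, measured 678, 660 and 524 units in macrophages and 53.8, 53.9 and 53.98 units in monocytes (11.5-fold, log2 difference 3.49, SE 0.20, adjusted p = 6.81e-10), so ligand and antagonist rose together. The signalling receptor IL1R1 and the decoy receptor IL1R2 rose at least 8.69-fold and at least 1.74-fold. IL1RAP, the accessory protein that IL1R1 needs to signal, fell, with 140.3, 119 and 126 units in macrophages and 305, 317 and 343 units in monocytes (2.51-fold, log2 difference -1.32, SE 0.10, adjusted p = 1.24e-08). The IL18 ratio was 1.47-fold and its direction turned after median-centring (-0.31). Quantile normalization left 3 of the 6 rises called.

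The genes that sense danger and process IL-1β did not follow IL1B. Of 6 tested inflammasome and NOD genes, 5 (83.3%, against 19.8% of all tested genes) were lower in macrophages and NLRP3 was higher. The median log2 difference was -0.53. CASP1, the protease that matures IL-1β, averaged 455 ± 39.98 units in macrophages and 681 ± 5.97 units in monocytes (SD, n = 3 each, log2 difference -0.58, SE 0.07, adjusted p = 3.84e-06). NOD1, a sensor of bacterial peptidoglycan, averaged 86.7 ± 11.5 units in macrophages and 139.9 ± 11.5 units in monocytes (log2 difference -0.69, SE 0.14, adjusted p = 3.07e-04). NOD2 measured 57.8, 66.2 and 28.2 units in macrophages and 69.01, 78.1 and 85.6 units in monocytes (adjusted p = 0.0462), and the call was lost without macrophage replicate 5 (log2 difference -0.32, adjusted p = 0.256) and without monocyte replicate 1, 3 or 6 (adjusted p = 0.0579, 0.0941 and 0.115). NLRP3, the inflammasome sensor, measured 947, 954 and 949 units in macrophages and 613, 593 and 666 units in monocytes (1.52-fold, log2 difference 0.61, SE 0.08, adjusted p = 4.96e-06), and after median-centring it too was called lower (-0.26), so that all 6 fell on the centred scale.

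All 5 tested CXC chemokines were higher in macrophages, against 67.2% of all tested genes, with a median log2 difference of 2.38. After median-centring 4 (80%, against 43.0% of all tested genes) stayed called. IL8 (CXCL8), which attracts neutrophils, measured 16639, 15932 and 13198 units in macrophages and 2774, 2910.2 and 3067 units in monocytes (5.23-fold, log2 difference 2.38, SE 0.12, adjusted p = 2.51e-10). In macrophages it gave the ninth highest probe signal of the panel. CXCL10, an interferon-induced chemokine, measured 296, 229.5 and 134 units in macrophages and 1.00, 6.22 and 7.88 units in monocytes (at least 10.99-fold, log2 difference 5.38, SE 0.53, adjusted p = 3.03e-07). CXCL11, also induced by interferon, measured 111, 54.8 and 29.4 units in macrophages and 3.24, 1.00 and 1.96 units in monocytes (at least 3.26-fold). Its macrophage values spread widely. CXCL1 and CXCL2 rose 4.87-fold and 2.63-fold, and CXCL2 lost its call after median-centring (0.52, adjusted p = 0.0542).

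The CC chemokines went both ways. Of 8 tested, 3 were higher in macrophages (CCL20, CCL5 and CCL3), 2 were lower (CCL24 and CCL22) and 3 were not called, with a median log2 difference of 0.05. After centring 3 were higher and 4 lower. The share of rises was 37.5% both times, against 67.2% and 43.0% of all tested genes. CCL5, a T cell and monocyte attractant, measured 4642, 4281 and 4314 units in macrophages and 809, 759 and 772 units in monocytes (5.66-fold, log2 difference 2.50, SE 0.06, adjusted p = 2.49e-14). CCL22, often used as a marker of alternatively activated macrophages, measured 15.3, 29.2 and 9.90 units in macrophages and 49.95, 48.8 and 47.4 units in monocytes (at least 2.44-fold, log2 difference -1.51, SE 0.33, adjusted p = 6.75e-04). CCL2, the main monocyte attractant, did not pass the test, with 88.1, 80.4 and 63.5 units in macrophages and 70.9, 101 and 85.6 units in monocytes (log2 difference -0.15, SE 0.58, adjusted p = 0.824), and the states overlapped. Its SE also takes in the Dex samples, where the macrophages measured 1.47 and 22.5 units.

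Receptors for chemoattractants mostly fell. Of 10 tested, 6 (60%, against 19.8% of all tested genes) were lower in macrophages, 2 were higher and 2 were not called. The median log2 difference was -0.85. CCR2, the CCL2 receptor that brings monocytes out of bone marrow, measured 582, 549 and 528 units in macrophages and 1991, 1926 and 1901 units in monocytes (3.51-fold, log2 difference -1.81, SE 0.06, adjusted p = 5.65e-13). CXCR2, a receptor for CXCL8, measured 49.3, 53.4 and 50.1 units in macrophages and 177, 182 and 184 units in monocytes (3.55-fold, log2 difference -1.81, SE 0.16, adjusted p = 7.67e-08). CXCR4, the receptor for the marrow chemokine CXCL12, averaged 437 ± 49.4 units in macrophages and 1422 ± 76.9 units in monocytes (3.26-fold, log2 difference -1.71, SE 0.07, adjusted p = 1.69e-11). The leukotriene B4 receptor genes LTB4R and LTB4R2 and the platelet-activating factor receptor gene PTAFR were the other falls. CCRL2, an atypical receptor that binds chemerin, rose instead, with 159.7, 141 and 154 units in macrophages and 6.10, 3.71 and 6.57 units in monocytes (at least 7.58-fold, log2 difference 4.59, SE 0.37, adjusted p = 2.85e-08), and CCR1 averaged 556 against 257 units (2.16-fold). Both rises held after centring, and so did the 6 falls, which centring could only enlarge.

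Of 8 tested cytokines and colony-stimulating factors, 5 (62.5%, near the 67.2% of all tested genes) were higher in macrophages and MIF was lower. The median log2 difference was 0.62, and after centring 3 were higher and 3 lower. CSF1, the ligand of CSF1R, measured 262, 298 and 234 units in macrophages and 15.6, 7.89 and 9.86 units in monocytes (at least 13.2-fold, log2 difference 4.50, SE 0.35, adjusted p = 2.47e-08), so ligand and receptor were both higher in macrophages. TGFB1, a cytokine of repair and immune restraint, averaged 4080.4 ± 456 units in macrophages and 729.5 ± 30.1 units in monocytes (5.59-fold, log2 difference 2.48, SE 0.07, adjusted p = 1.77e-13). TNF measured 588, 536 and 467 units in macrophages and 367, 417 and 359.5 units in monocytes, a 1.39-fold difference (log2 difference 0.47, SE 0.17, adjusted p = 0.0186). That difference was called in the other direction after median-centring (-0.39) and under quantile normalization (-0.45), and its call as deposited was lost without macrophage replicate 1 (adjusted p = 0.0729), monocyte replicate 1 (0.0528) or monocyte replicate 6 (0.0518). IL6, IL10, IL12A and IL12B were under 20 units in both states.

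Toll-like receptors detect microbial products, and NF-kB carries much of their signal to the nucleus. Of 7 tested Toll-like receptors and lipopolysaccharide co-receptors, 6 (85.7%, against 67.2% of all tested genes) were higher in macrophages and TLR3 was not called. The median log2 difference was 1.79. CD14, which hands lipopolysaccharide to TLR4, measured 206, 205 and 154 units in macrophages and 48.99, 61.4 and 50.03 units in monocytes (3.52-fold, log2 difference 1.79, SE 0.24, adjusted p = 7.50e-06). LY96, which TLR4 needs to bind lipopolysaccharide, measured 444, 419.9 and 393 units in macrophages and 1.00 in each sample in monocytes. TLR4 itself measured 621, 529 and 569.5 units in macrophages and 336, 291 and 284 units in monocytes (1.89-fold, log2 difference 0.91, SE 0.10, adjusted p = 9.45e-07), and this rise was about that of the median gene (0.05 after centring, not called). The lipopeptide receptor genes TLR1 and TLR2 averaged 685 and 2479 units in macrophages, against 89.2 and 874 units in monocytes (7.69-fold and 2.83-fold), and both stayed called after centring. 

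The adaptors and kinases behind these receptors did not share 1 direction. Of 11 tested, 8 (72.7%, near the 67.2% of all tested genes) were higher in macrophages, 2 were lower and TIRAP was not called, with a median log2 difference of 0.60, and after centring 4 were higher and 6 lower. IRAK2, a kinase of sustained signalling, measured 347, 340.4 and 277 units in macrophages and 12.8, 17.9 and 32.9 units in monocytes (15.2-fold, log2 difference 3.96, SE 0.28, adjusted p = 8.33e-09). TICAM1, the TRIF adaptor of TLR3 and TLR4, averaged 237 units in macrophages and 77.8 units in monocytes (3.05-fold). IRAK3, the family member that restrains the pathway, fell, with 155, 167 and 166 units in macrophages and 526, 443 and 463 units in monocytes (2.93-fold, log2 difference -1.54, SE 0.08, adjusted p = 4.03e-10). IRAK4 also fell (276 against 387 units, 1.40-fold).

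Of 15 tested NF-kB subunits, inhibitors and kinases, 11 (73.3%, near the 67.2% of all tested genes) were higher in macrophages, IKBKB was lower and 3 were not called, with a median log2 difference of 0.44. NFKBIA, the inhibitor IκBα, which NF-kB itself induces, measured 5469, 4935 and 4735 units in macrophages and 1973, 1842 and 1891 units in monocytes (2.65-fold, log2 difference 1.41, SE 0.06, adjusted p = 1.01e-11). TNFAIP3, the feedback enzyme A20, averaged 944 ± 100.1 units in macrophages and 261 ± 21.5 units in monocytes (3.62-fold, log2 difference 1.85, SE 0.11, adjusted p = 1.34e-09). MALT1, a scaffold and protease of the pathway, averaged 653 units in macrophages and 211 units in monocytes (3.10-fold). Of the subunit genes, NFKB1 was not called and RELA and RELB rose 1.36-fold and 1.31-fold. NFKB2 was also called higher as deposited, and its values are not reported here. After median-centring RELA and RELB were called lower (-0.43 and -0.48), and the list stood at 6 rises and 8 falls. The IKBKB fall (253 against 311 units, adjusted p = 0.017) was lost without macrophage replicate 5 (adjusted p = 0.0724) or monocyte replicate 6 (0.077).

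Among 6 tested TNF superfamily ligands, 3 (50%, against 67.2% of all tested genes) were higher in macrophages, CD70 was lower and 2 were not called. The median log2 difference was 0.47, and after centring 2 were higher and 3 lower. TNFSF15, which encodes TL1A, measured 175, 122 and 162 units in macrophages and 6.10, 3.71 and 7.88 units in monocytes (at least 7.66-fold, log2 difference 4.51, SE 0.53, adjusted p = 2.03e-06). CD70, the ligand of CD27, measured 325, 259 and 227 units in macrophages and 966, 977 and 919 units in monocytes (3.53-fold, log2 difference -1.83, SE 0.10, adjusted p = 6.12e-10). TNFSF4, the OX40 ligand gene, was near the limit (29.02 against 7.83 units) and its difference was -0.05 under quantile normalization. Of 11 tested TNF receptors and TRAF adaptors, 10 (90.9%, against 67.2% of all tested genes) were higher in macrophages and TRAF2 was lower. The median log2 difference was 1.08, and 6 rises (54.5%, against 43.0% of all tested genes) stayed called after centring. TRAF1, an adaptor that NF-kB induces, measured 128, 117 and 117 units in macrophages and 1.00 in each sample in monocytes (at least 6.04-fold, log2 difference 5.93, SE 0.59, adjusted p = 3.21e-07). Its SE also takes in the Dex samples, whose TRAF1 values lay under 20 units. TNFRSF14, the herpesvirus entry mediator, averaged 140.2 units in macrophages and 28.1 units in monocytes (4.99-fold).

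Interferon-stimulated genes rose as a group under every scaling run. All 9 tested members were higher in macrophages, as deposited and after each of the 3 scalings (over all tested genes 67.2% were higher as deposited and 43.0% after centring), with a median log2 difference of 2.70 as deposited and 1.83 after median-centring. MX1, an antiviral GTPase, measured 4217, 3599 and 2747 units in macrophages and 224, 285 and 239 units in monocytes (14.1-fold, log2 difference 3.80, SE 0.19, adjusted p = 1.48e-10). IFI16, a sensor of DNA, measured 1694, 1519 and 1352 units in macrophages and 113, 98.98 and 118 units in monocytes (13.8-fold, log2 difference 3.78, SE 0.14, adjusted p = 6.57e-12). GBP1, a guanylate-binding protein, measured 267, 204 and 166 units in macrophages and 1.00 in each sample in monocytes (at least 10.6-fold, log2 difference 6.71, SE 0.31, adjusted p = 6.38e-11). IFIT2, IFITM1, IFI35, IFIH1, BST2 and PML rose between 2.42-fold and 8.02-fold. Within the macrophages, replicate 1 was the highest and replicate 5 the lowest for all 9 genes, and still no macrophage sample reached the monocyte range. Total signal had the same order (819439, 784138 and 742895 units in replicates 1, 3 and 5). The 12 genes of this list on the panel summed to 8372 to 11937 units in macrophages, a wider range for its level than that of total signal. Net counts had another order (675269, 552015 and 609430 in replicates 1, 3 and 5). What lies behind the order in these genes was not tested. The interferon genes IFNB1 and IFNG were under 20 units in both states.

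The factors that act on these genes moved with them in part. Of 9 tested interferon regulatory factors and receptors, 8 (88.9%, against 67.2% of all tested genes) were higher in macrophages and IRF8 was lower. The median log2 difference was 1.30, and 5 rises (55.6%, against 43.0% of all tested genes) stayed called after centring. IRF7, which amplifies type I interferon, measured 351, 276 and 229 units in macrophages and 53.8, 58.9 and 54.6 units in monocytes (5.12-fold, log2 difference 2.32, SE 0.21, adjusted p = 1.34e-07). IFNGR1, a chain of the interferon gamma receptor, averaged 8144 ± 345 units in macrophages and 1844 ± 74.5 units in monocytes (4.42-fold, log2 difference 2.14, SE 0.05, adjusted p = 1.23e-14). IRF8, a factor of the monocyte and dendritic cell lineages, measured 998, 1056 and 1013 units in macrophages and 3864, 3651 and 3844 units in monocytes (3.70-fold, log2 difference -1.89, SE 0.05, adjusted p = 6.85e-14). Of 13 tested JAK, STAT and SOCS genes, 10 (76.9%) were higher and 3 (23.1%) lower (STAT4, SOCS3 and CISH), near the 67.2% and 19.8% of all tested genes, with a median log2 difference of 0.73, and 5 and 7 after centring. STAT2, which carries the type I interferon signal, averaged 1131 units in macrophages and 344 units in monocytes. STAT5A averaged 133 against 34.9 units (3.82-fold). The feedback inhibitors parted, since SOCS1 measured 72.3, 67.6 and 90.4 units in macrophages and 8.01, 12.9 and 13.8 units in monocytes (at least 3.84-fold), while SOCS3 measured 5.58, 19.3 and 7.46 units in macrophages and 34.7, 38.8 and 38.2 units in monocytes (at least 1.86-fold lower).

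Promoter windows are shown for 4 interferon-stimulated genes that rose together and for ICAM1 and CXCL8, which are among the inflammatory rises. Each of the windows shown holds a match, and windows of rises without a match are not shown. Each window runs from 250 bases before to 50 after the gene's start, from RefSeq (GRCh38.p14), and 293 of 353 tested gene symbols had one. Letters searched on both strands were GAAANNGAA, found in interferon-stimulated response elements, GGANNTTCC, found in NF-kB sites, and TGANTCA, found in AP-1 sites; matches are in capitals.
MX1: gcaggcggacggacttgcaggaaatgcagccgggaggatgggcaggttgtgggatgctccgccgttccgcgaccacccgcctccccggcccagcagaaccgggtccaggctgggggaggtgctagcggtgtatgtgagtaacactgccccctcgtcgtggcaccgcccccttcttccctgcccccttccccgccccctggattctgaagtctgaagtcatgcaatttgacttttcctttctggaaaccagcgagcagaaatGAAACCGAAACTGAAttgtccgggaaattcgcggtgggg
GBP1: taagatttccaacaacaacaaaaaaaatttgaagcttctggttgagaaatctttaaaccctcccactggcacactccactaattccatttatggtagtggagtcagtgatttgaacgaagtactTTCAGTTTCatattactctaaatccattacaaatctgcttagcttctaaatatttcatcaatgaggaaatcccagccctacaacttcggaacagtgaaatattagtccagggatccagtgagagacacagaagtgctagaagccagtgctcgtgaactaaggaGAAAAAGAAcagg
IFITM1: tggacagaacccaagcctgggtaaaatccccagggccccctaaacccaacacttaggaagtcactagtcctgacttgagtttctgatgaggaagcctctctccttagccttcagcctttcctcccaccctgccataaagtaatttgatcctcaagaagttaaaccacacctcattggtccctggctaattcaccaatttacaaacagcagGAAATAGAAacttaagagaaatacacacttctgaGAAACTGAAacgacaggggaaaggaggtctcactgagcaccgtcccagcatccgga
BST2: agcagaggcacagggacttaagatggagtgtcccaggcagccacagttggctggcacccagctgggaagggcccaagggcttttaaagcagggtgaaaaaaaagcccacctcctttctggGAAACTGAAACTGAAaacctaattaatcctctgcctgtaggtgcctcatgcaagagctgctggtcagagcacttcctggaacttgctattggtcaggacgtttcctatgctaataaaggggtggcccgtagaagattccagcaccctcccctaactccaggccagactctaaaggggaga
ICAM1: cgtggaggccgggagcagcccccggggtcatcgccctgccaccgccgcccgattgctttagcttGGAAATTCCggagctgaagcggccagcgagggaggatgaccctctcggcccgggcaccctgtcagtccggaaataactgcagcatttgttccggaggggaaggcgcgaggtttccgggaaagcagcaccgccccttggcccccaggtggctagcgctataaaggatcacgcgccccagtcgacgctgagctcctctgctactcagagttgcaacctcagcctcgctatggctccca
CXCL8: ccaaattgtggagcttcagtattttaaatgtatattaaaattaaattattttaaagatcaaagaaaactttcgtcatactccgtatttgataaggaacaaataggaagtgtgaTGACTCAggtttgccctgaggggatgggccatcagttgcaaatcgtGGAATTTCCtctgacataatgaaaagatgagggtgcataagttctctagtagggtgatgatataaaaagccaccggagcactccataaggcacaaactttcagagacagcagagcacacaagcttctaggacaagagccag
These windows lie at chr21:41420308-41420607 (MX1, plus strand), chr1:89065159-89065458 (GBP1, minus strand), chr11:313790-314089 (IFITM1, plus strand), chr19:17405581-17405880 (BST2, minus strand), chr19:10270870-10271169 (ICAM1, plus strand) and chr4:73740319-73740618 (CXCL8, plus strand). In MX1 and GBP1 1 or more matches lie after the start, and the match in ICAM1 begins 186 bases before it. In CXCL8 the TGANTCA match begins 137 bases and the GGANNTTCC match 91 bases before the start. No 2 motifs overlapped each other in these 6 windows, although matches of the same motif did in MX1 and BST2.

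Matches were counted over sets of windows as a description. GAAANNGAA was present in 5 of the 7 interferon-stimulated genes with a window (71.4%), in 13.3% of tested genes and in 8.29% of all 27305 windows. It was also present in 15.6% of the windows of centred rises and in 10.7% of those of falls. Of the 12 largest rises, 0 of 9 windows held it, and of the 12 largest falls, 3 of 10 did. GGANNTTCC was present in 20 of 128 windows of genes that were higher in macrophages also after centring (15.6%), in 1 of 56 windows of genes that were lower (1.79%), in 9.90% of tested genes and in 4.59% of all windows. TGANTCA was present in 9.38% of the windows of centred rises, 10.7% of those of falls, 7.85% of tested genes and 7.76% of all windows. A match says only that the letters are there.

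As deposited, most class II antigen presentation genes fell and class I genes rose, and after centring the class I list was divided. Of 7 tested MHC class II genes, 5 (71.4%, against 19.8% of all tested genes) were lower in macrophages, HLA-DOB was higher and CD74 was not called. The median log2 difference was -0.62. HLA-DRA, the alpha chain of HLA-DR, measured 43.2, 63.3 and 28.2 units in macrophages and 197, 194 and 179.8 units in monocytes (4.24-fold, log2 difference -2.13, SE 0.23, adjusted p = 6.46e-07). HLA-DQB1 measured 10.4, 9.34 and 1.22 units in macrophages and 49.95, 39.6 and 49.4 units in monocytes (at least 2.32-fold, log2 difference -2.88, SE 0.55, adjusted p = 2.43e-04). HLA-DRB1 and HLA-DRB3, near-identical genes whose probes may share targets, averaged 136 and 131 units in macrophages and 209 and 196 units in monocytes. HLA-DOB, at 32.3, 39.2 and 29.4 units in macrophages and 28.98, 13.7 and 19.7 units in monocytes, turned sign after centring (-0.15) and lost its call as deposited without macrophage replicate 3, monocyte replicate 3 or monocyte replicate 6 (log2 difference 0.60, 0.46 and 0.71). CIITA, the master activator of class II genes, was under 20 units in both states.

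All 14 tested class I and proteasome genes were higher in macrophages as deposited, against 67.2% of all tested genes, with a median log2 difference of 0.98. TAP1, which pumps peptides into the endoplasmic reticulum, measured 547, 488 and 412 units in macrophages and 98.6, 85.6 and 102 units in monocytes (5.06-fold, log2 difference 2.32, SE 0.15, adjusted p = 2.17e-09). PSMB9, an immunoproteasome subunit, averaged 2024 ± 177 units in macrophages and 583 ± 36.5 units in monocytes (3.47-fold). HLA-B, HLA-C and B2M rose between 2.11-fold and 2.77-fold. Centring left 7 rises (50%, against 43.0% of all tested genes), among them TAP1, TAP2, PSMB9, B2M, HLA-B and HLA-C, and called 4 members lower: PSMB5 (-0.37), PSMB7 (-0.31), PSMB10 (-0.52) and PSMD7 (-0.56), of which PSMB10 is an immunoproteasome subunit.

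Fc receptor genes held both large rises and clear falls. Of 7 tested probes, 3 were higher in macrophages and 4 (57.1%, against 19.8% of all tested genes) were lower. Their median log2 difference was -1.24, and all 7 kept their calls after centring, which could not turn the falls. FCER1G, the signalling chain shared by activating receptors, measured 10364, 8231 and 8481 units in macrophages and 817, 848 and 805 units in monocytes (10.96-fold, log2 difference 3.45, SE 0.09, adjusted p = 1.30e-13). The FCGR3A/B probe, for CD16, measured 79.6, 67.6 and 61.1 units in macrophages and 2.29, 1.00 and 1.00 units in monocytes (at least 3.47-fold, log2 difference 4.89, SE 0.38, adjusted p = 2.56e-08). FCGR2A, which encodes CD32a, measured 433, 438 and 404 units in macrophages and 1242, 1104 and 1148 units in monocytes (2.74-fold, log2 difference -1.45, SE 0.07, adjusted p = 1.48e-10), and the probe for FCGR2A and FCGR2C together gave a similar ratio (2.87-fold). FCGR1A/B, for the high-affinity receptor CD64, averaged 70.05 ± 20.8 units in macrophages and 162 ± 9.56 units in monocytes (2.32-fold). Probes named for 2 genes cannot tell them apart.

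Of 5 tested leukocyte immunoglobulin-like receptors, LILRB1 was higher in macrophages (81.2 against 12.3 units, at least 4.06-fold), 3 were lower and LAIR1 was not called, with a median log2 difference of -0.27. After centring 1 was higher and 4 were lower (80%, against 46.8% of all tested genes). LILRA2 and LILRB2 averaged 145 and 70.05 units in macrophages and 252 and 112 units in monocytes. Of 10 tested complement genes, 5 (50%, against 67.2% of all tested genes) were higher, 3 were lower and 2 were not called. The median log2 difference was 0.16, and after centring 3 were higher and 7 lower (median -0.70). CD59, which blocks the membrane attack complex, measured 1077, 974 and 924 units in macrophages and 99.5, 84.8 and 95.5 units in monocytes (10.6-fold, log2 difference 3.40, SE 0.10, adjusted p = 2.54e-13). CFD, the alternative-pathway protease factor D, measured 708, 768 and 671 units in macrophages and 2356, 2172 and 2203 units in monocytes (3.14-fold, log2 difference -1.65, SE 0.06, adjusted p = 4.33e-12). The alternative-pathway stabiliser gene CFP fell with it (36.1 against 85.1 units), while C2 of the classical pathway rose (97.5 against 32.8 units).

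Of 9 tested costimulatory and checkpoint genes, 8 (88.9%, against 67.2% of all tested genes) were higher in macrophages and CD244 was lower. The median log2 difference was 1.27, and 6 rises (66.7%, against 43.0% of all tested genes) held after centring. Beside HAVCR2, the checkpoint gene CD276 averaged 4676 units in macrophages and 1239 units in monocytes (3.77-fold), and CD83, a marker of mature antigen-presenting cells, averaged 644 against 266 units. The CD244 fall (254 against 308 units, adjusted p = 0.0156) was lost without macrophage replicate 3 (adjusted p = 0.0575) or monocyte replicate 6 (0.0626).

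Effector genes held both rises and falls. Of 5 tested calprotectin, oxidase and antimicrobial genes, S100A8 and S100A9 were lower in macrophages and CYBB, NCF4 and HAMP were higher, with a median log2 difference of 0.24. That was 60% higher and 40% lower, against 67.2% and 19.8% of all tested genes. After centring 2 were higher (40%, against 43.0%) and 3 lower (60%, against 46.8%). CYBB, the membrane subunit of the NADPH oxidase, measured 3850.3, 3283 and 3364 units in macrophages and 302, 296 and 302 units in monocytes (11.7-fold, log2 difference 3.54, SE 0.07, adjusted p = 5.16e-15). NCF4, a cytosolic subunit of the same oxidase, averaged 1069 units in macrophages and 903 units in monocytes and was called lower after centring (-0.62). HAMP, which encodes the iron hormone hepcidin, measured 44.4, 44.9 and 35.5 units in macrophages and 1.00 in each sample in monocytes (at least 2.08-fold). Of 5 tested cathepsin and granule genes, 3 (60%) were higher and 2 (40%) lower under every scaling run, with a median log2 difference of 1.56. Over all tested genes 67.2% were higher and 19.8% lower as deposited, and 43.0% and 46.8% after centring. CTSS, the lysosomal cathepsin S that trims class II invariant chain, measured 15653, 14693 and 13898 units in macrophages and 3148, 3077 and 3079 units in monocytes (4.76-fold, log2 difference 2.25, SE 0.04, adjusted p = 5.16e-15). Cathepsins S and G thus differed in direction. GNLY, the granule protein granulysin, averaged 114 ± 16.4 units in macrophages and 15.9 ± 4.21 units in monocytes (at least 5.72-fold).

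Of 12 tested macrophage transcription factors, 8 (66.7%) were higher in macrophages under every scaling run, against 67.2% of all tested genes as deposited and 43.0% after centring, BATF3 was lower and 3 were not called, with a median log2 difference of 2.01. PPARG, the lipid-sensing receptor that drives CD36 in macrophages, measured 629, 578 and 527 units in macrophages and 81.4, 67.2 and 83.6 units in monocytes (7.47-fold, log2 difference 2.89, SE 0.10, adjusted p = 4.22e-12). CEBPB and ETS1 averaged 2164 and 2485 units in macrophages and 437 and 509.8 units in monocytes (4.96-fold and 4.88-fold). EGR1, unlike EGR2, was not called (315, 325 and 293 units in macrophages and 242, 269 and 385 units in monocytes). Of 15 tested haematopoietic factors, 7 were higher (46.7%, against 67.2% of all tested genes) and 5 lower (33.3%, against 19.8%). Their median log2 difference was 0.39. After centring 4 were higher (26.7%, against 43.0% of all tested genes) and 8 lower (53.3%, against 46.8%). RUNX1 and IKZF1 averaged 564 and 202 units in macrophages and 915 and 314 units in monocytes. NFATC1, a calcium-regulated factor, averaged 201 against 64.3 units (3.12-fold), ZEB1 averaged 395 against 166 units, and TCF7 fell near the limit (20.02 against 50.7 units).

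Signalling and survival lists had medians below that of all tested genes, and shares of rises between 69.2% and 77.8%, near the 67.2% of all tested genes. Of 9 tested TGF-beta and Notch genes, 7 were higher and 2 lower, with a median log2 difference of 0.69, and 3 and 4 after centring. NOTCH1 averaged 698 units in macrophages and 252 units in monocytes (2.77-fold), while SKI, a repressor of TGF-beta signalling, averaged 880.2 against 1314 units and SMAD5 424 against 572 units. Of 13 tested apoptosis and cell-cycle genes, 9 were higher and 2 lower, with a median log2 difference of 0.53, and 3 and 8 after centring. The 3 centred rises were CDKN1A, PTK2, the focal adhesion kinase (792 against 128 units, 6.21-fold), and MCL1, a survival factor (11097 against 4373 units). BCL2, another survival factor, fell (369 against 534 units, 1.44-fold), and CASP2 averaged 750.3 against 862 units.

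Of 7 tested MAP kinase genes, 5 were higher and MAP4K1 lower, with a median log2 difference of 0.58, and 2 and 4 after centring. DUSP4, a phosphatase that switches off MAP kinases, averaged 552 ± 34.8 units in macrophages and 84.1 ± 2.49 units in monocytes (6.56-fold), and MAP4K4 averaged 4917 ± 209 units in macrophages and 834 ± 14.98 units in monocytes (5.89-fold). Of 6 tested metabolism genes, 5 (83.3%, against 67.2% of all tested genes) were higher and SLC2A1 was not called. The median log2 difference was 1.21, and after centring 4 were higher and 2 lower. The 15 housekeeping genes held 7 rises (46.7%, against 67.2% of all tested genes) and 2 falls (13.3%, against 19.8%). Their median log2 difference was 0.10, so they lay below the median tested gene. GAPDH averaged 33066 units in macrophages and 29689 units in monocytes (centred -0.71), and RPL19 30606 against 29674 units. ALAS1, the first enzyme of haem synthesis, rose most (4697 against 1296 units). After median-centring 13 of the 15 housekeeping genes were called lower (86.7%, against 46.8% of all tested genes).

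Markers of other blood cells were mostly under 20 units. Of 14 T cell markers, 12 were under 20 units in both states, among them CD3D, CD3E and CD2, and the 2 tested were IL7R, the interleukin 7 receptor (324, 274 and 287 units in macrophages and 88.1, 82.3 and 102 units in monocytes), and TCF7. Their summed signal was 309 to 376 units in macrophages and 157 to 173 units in monocytes. Of 10 B cell markers, 7 were under 20 units, including CD79A and MS4A1, and CD22 made up most of a sum of 929.9 to 1074 units in macrophages, against 73.5 to 102 units in monocytes. Of 10 NK cell markers, NCAM1 (3452 against 1602 units, 2.15-fold) and GNLY were the 2 above 20 units, and the NCAM1 difference was -0.02 under quantile normalization. The NK sum was 3319 to 3754 units in macrophages and 1615 to 1651 units in monocytes. Of 4 tested neutrophil markers, CEACAM6, CXCR2 and CSF3R were lower in macrophages (75%, against 19.8% of all tested genes) and FCGR3A/B higher. After centring the share of falls was again 75%, against 46.8% of all tested genes. The neutrophil sums were 276 to 305 units in macrophages and 694 to 755 units in monocytes.

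The state difference was then set beside that of the Dex samples, which share no sample with the vehicle comparison. In those, 290 of the 363 genes (79.9%) were called, 224 higher and 66 lower in macrophages. Of the 244 rises with vehicle, 214 were called higher with Dex, 28 were not called and 2 (CSF2RB and LEF1) were called lower. LEF1 also lost its vehicle call after median-centring (0.50). Of the 72 falls, 58 were called lower, 12 were not called and 2 (FKBP5 and NOD2) were called higher. The 2 Dex macrophage samples were those left after the submitters removed another in which FKBP5 had not gone up, so they were in part chosen on a Dex response.

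The test of the difference between the 2 state effects called 88 genes (24.2%), 46 with a more positive and 42 with a more negative difference with Dex. FKBP5, a co-chaperone and glucocorticoid target, measured 435, 407 and 623 units in macrophages and 1259, 1205 and 1247 units in monocytes with vehicle (2.53-fold lower, log2 difference -1.36, SE 0.11, adjusted p = 3.56e-08). With Dex it measured 38036 and 37306 units in macrophages and 24832, 24989.9 and 24903 units in monocytes, and the state difference changed sign (0.60). MSR1, with 6074 and 6145 units in Dex macrophages and 1.00, 1.00 and 3.26 units in Dex monocytes, kept its call with Dex (log2 difference 11.21). CCL24 was no longer called, with 39.5 and 31.6 units in Dex macrophages and 38.00, 33.2 and 52.8 units in Dex monocytes.

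**Figure D5:**
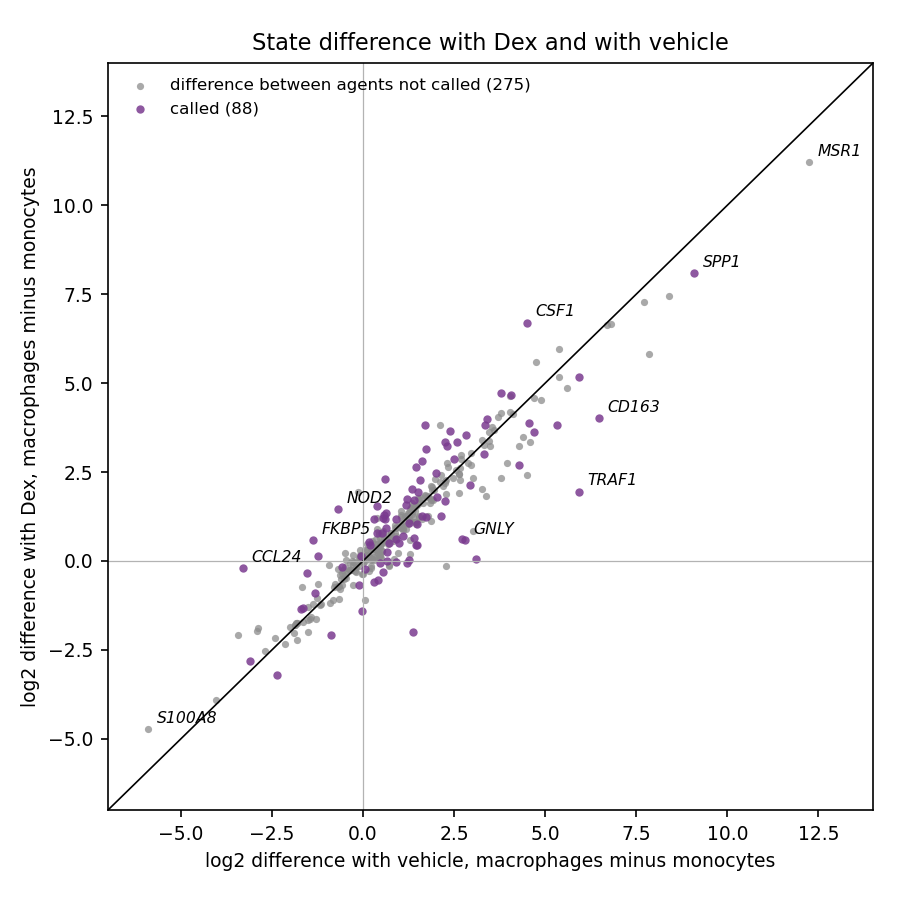
Log2 difference of macrophages minus monocytes with Dex (y axis) against that with vehicle (x axis) for the 363 tested genes, with the 88 genes whose 2 state differences differed by limma's interaction test in purple. The line marks equal differences, and TRAF1, CCL24 and CD163 are among the genes far from it.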

How the data were processed

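The authors deposited 1 table of NanoString nCounter values for 11 samples, in which each value is a normalized linear signal per probe. Per the labels' protocols, RNA was extracted with a column kit, and per the series' design text the samples passed nSolver quality control and 1 Dex macrophage sample was excluded. The background rule, the genes used for normalization and the software version were not stated in those sources. From the deposited signal, 100% of low values lay on a whole-count grid within a tolerance of 0.1, which gave a factor per sample.

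Positive and negative control probes were dropped. Genes with a mean of 20 units or more in macrophages or monocytes with vehicle were tested with limma 3.58.1 (R 4.3.3, lmFit and eBayes with a mean-variance trend) on log2(value + 1). All 11 samples entered 1 fit with 4 groups, contrasts were macrophages minus monocytes with vehicle, the same with Dex, and their difference, and p-values were adjusted by Benjamini-Hochberg over the 363 genes, with calls at an adjusted p under 0.05. Fold changes are ratios of group means with a mean under 20 set to 20. Fitted log2 differences depend on the pseudocount where values are near 1. For genes at the lowest value in a state the level there is not measured. Their fitted difference may lie above or below the true change. The fit was tested on simulated data. Symbols matched RefSeq's current symbol for 565 probes and an older symbol for 8, and 21 had no match.

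Genes named are the 12 largest rises and 12 largest falls among genes called, not overlapping between states and of the same sign after median-centring; the 2 largest rises and falls of each of 40 lists; a short list named whatever its values; and family members needed to account for a list. The samples, gene lists and named genes were chosen with earlier results of these data known. Alternatives were 3 scalings, another pseudocount, a floor at 20, no filter, a filter at 50 units, no variance trend, the replicate number as a block, the 6 vehicle samples alone and each replicate left out. Single values of a few list members are not reported here.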

Additional observations from a re-analysis of the deposited data

Results flagged for a closer look

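For 37 of the named genes, the macrophage against monocyte difference with Dex was not the same as with vehicle by limma's interaction test (adjusted p under 0.05, a share of 24.2% over all tested genes). Values in brackets are the state difference with Dex minus that with vehicle, in log2. Genes more positive with Dex were CCL24 (3.10), NOD2 (2.14), FKBP5 (1.96), NLRP3 (1.70), CFP (1.38), IL8 (1.28), IRAK3 (1.21), MX1 (0.92), CSF1R (0.70), ITGA6 (0.61), CD59 (0.60), CD36 (0.46), IL1RAP (0.44), TLR2 (0.43), SKI (0.42), CCL5 (0.38), CFD (0.32) and CTSG (0.29). Genes more negative with Dex were BCL6 (-1.56), KIT (-1.19), CDKN1A (-1.05), NOTCH1 (-1.01), SPP1 (-1.002), TLR4 (-0.95), CSF2RB (-0.94), IFNGR1 (-0.88), PTPN22 (-0.85), TLR1 (-0.80), NFKBIA (-0.77), CD9 (-0.67) and MALT1 (-0.36).

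A further 6 genes had at least 1 of the 4 groups under 20 units, so that their differences rest on values near the limit: CSF1 (2.21), IL7R (2.12), IL1B (-0.75), GNLY (-2.20), CD163 (-2.45) and TRAF1 (-3.98). TRAF1 measured 128, 117 and 117 units in macrophages and 1.00 in each sample in monocytes with vehicle, and 8.60 and 19.4 units in macrophages and 1.00, 1.00 and 10.9 units in monocytes with Dex. CD163 measured 165, 204 and 162 units in macrophages and 1.00 in each sample in monocytes with vehicle, and 597 and 709 units in macrophages and 37.3, 38.00 and 42.6 units in monocytes with Dex. CCL24, with the largest difference among genes above 20 units in every group, measured 41.99, 32.1 and 31.8 units in macrophages and 346, 339.7 and 374 units in monocytes with vehicle, and 39.5 and 31.6 units in macrophages and 38.00, 33.2 and 52.8 units in monocytes with Dex. The 2 Dex macrophage samples were kept by the submitters partly on their FKBP5 level, and what part that has in these differences was not tested.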

How the results depend on the processing

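Scaling decided how many genes were called in each direction. Genes higher in macrophages with vehicle numbered 244 as deposited, 156 after median-centring and 141 after quantile normalization, and genes lower numbered 72, 170 and 178. With Dex the rises numbered 224, 139 and 133 and the falls 66, 165 and 178. Rises made up 77.2% of calls as deposited, 68.6% with the housekeeping list, 47.9% after median-centring and 44.2% after quantile normalization. Among the 117 genes followed under every alternative, which leave out some family members, those whose direction turned were CSF2RB (median-centred -0.45, quantile -0.54), NLRP3 (-0.26, -0.32), HLA-DOB (-0.15, -0.60) and TNF (-0.39, -0.45), and under quantile normalization also TNFSF4 (-0.0505) and NCAM1 (-0.0166). The median-centred turns follow from the shift of 0.87 that centring takes away, and the cause of the TNFSF4 and NCAM1 turns was not tested. Of 1864 values of these genes under the alternatives, 1820 kept direction and call, 33 lost the call, 1 gained it and 10 turned. The counts of calls were within 1.5 times in 70 of 80 cases. The replicate numbers do not pair the samples: macrophages and monocytes share numbers 1 and 3 with vehicle, whose deviations correlated at 0.06 and 0.01. With the replicate block, 238 genes were higher and 63 lower with vehicle, 42 were lower with Dex, and 44 differed between Dex and vehicle, against 88 without it. Without the filter 316 of 594 genes were higher and 74 lower; there the lowest possible value, 1.21 to 1.42 in macrophages and 1.00 in monocytes, itself differs between the states. Values under 20 units rest on few counts, and 3 samples a state limit precision.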

Other observations

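Some genes outside the lists differed clearly, and those given here were chosen after their values were seen. Of the probes for isoforms of CD45, the leukocyte surface phosphatase, CD45RA and CD45R0 moved apart. CD45RA, the long isoform of naive lymphocytes, measured 44.4, 40.6 and 34.3 units in macrophages and 130.01, 123 and 125 units in monocytes (log2 difference -1.65, SE 0.32, adjusted p = 2.96e-04). CD45R0, the shortest isoform, measured 791, 633 and 640.2 units in macrophages and 185, 187 and 174 units in monocytes (log2 difference 1.91, SE 0.09, adjusted p = 1.22e-10). The CD45RB probe averaged 681 units in macrophages and 438 units in monocytes (log2 difference 0.63, SE 0.06, adjusted p = 3.00e-07) and was called lower after centring (-0.23). The probe for all isoforms, PTPRC_all, averaged 2718 units in macrophages and 1889 units in monocytes and was called lower after centring (-0.34). 

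SLAMF7, a receptor of the SLAM family, measured 376, 315 and 317 units in macrophages and 3.24, 8.73 and 11.8 units in monocytes (at least 16.8-fold, log2 difference 5.38, SE 0.42, adjusted p = 2.59e-08). The drug efflux pump gene ABCB1 averaged 344 ± 32.5 units in macrophages and 27.8 ± 6.44 units in monocytes (SD, n = 3 each, 12.4-fold), and the tetraspanin gene CD53 averaged 4588 ± 167 and 457 ± 13.7 units (10.05-fold). TMEM173, which encodes the STING adaptor that turns on interferon genes when DNA is sensed, was lower in macrophages while interferon-stimulated genes were higher, with 1861, 1521 and 1511 units in macrophages and 3730.2, 3692 and 3606 units in monocytes (2.25-fold, log2 difference -1.18, SE 0.07, adjusted p = 1.01e-09).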
